A study of Mus musculus with 2 samples.

Results

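The genes described are 8 genes of the osteoblast and of bone matrix, Runx2, Sp7, Alpl, Ibsp, Bglap, Bglap2, Phex and Dmp1, taken by symbol from the 32285 genes counted in 2 scRNA-seq libraries of the mouse temporomandibular joint (TMJ). With them are described the barcodes that carried at least 10 UMIs of Bglap, Bglap2 and Ibsp together, of which there were 78 among 4352 kept cells of the WT library and 34 among 5757 kept cells of the mutant library. A UMI, or unique molecular identifier, marks 1 captured transcript, and a barcode marks 1 droplet, which may hold a cell, more than 1 cell or free RNA.

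Bone is laid down by osteoblasts, which arise from mesenchymal cells under the transcription factors Runx2 and Sp7 (osterix), secrete a collagen-rich matrix and mineralize it. Alkaline phosphatase (Alpl) promotes mineral formation, bone sialoprotein (Ibsp) and osteocalcin (Bglap and its neighbour Bglap2) are secreted into the matrix, and Phex and Dmp1 are known from late osteoblasts and from osteocytes buried in bone. In the mandibular condyle cartilage lies directly on bone, and its hypertrophic chondrocytes share Runx2, Alpl and Ibsp with osteoblasts.

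The joints came from WT mice and from Prox1+/− mice (the mutant), both labelled as C57BL/6, 8 to 10 weeks old and female by the study's account, and in both groups complete Freund's adjuvant (CFA) had been injected into the joint to cause arthritis. The mutant lacks 1 functional copy of Prox1, a transcription factor gene of lymphatic endothelium, throughout the animal and not in bone cells alone. The study asked how reduced Prox1 changes the inflamed joint. Each genotype has 1 library of enzymatically digested tissue, no uninjected joint is among the samples, and no source used here says how many animals went into a library or how long after the injection it was taken. No difference between the genotypes could therefore be tested, and each value stands with a 95% interval that covers counting error only and neither the spread between animals nor that between cells.

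After a filter of at least 500 detected genes and under 10% mitochondrial UMIs the WT library held 48366846 UMIs, with a median of 6997 per cell, and the mutant library 54330221, with a median of 4848. Prox1 stood at 11.6 (10.7 to 12.6) CPM (UMIs per 1000000 UMIs, with the exact Poisson interval in brackets) in WT and at 5.80 (5.18 to 6.47) in the mutant. Endothelial-like cells, the class that would hold lymphatic endothelium, made up 24.2% of kept WT and 9.26% of kept mutant cells, and within them Prox1 was at 41.2 (36.6 to 46.1) CPM in WT and 25.8 (21.4 to 30.8) in the mutant, so that it was lower in the library labelled as the mutant in both views. The libraries shared 10 barcode sequences. Clustering without the 8 genes gave 44 clusters, of which 30 were named from marker genes, and 859 WT and 2349 mutant cells stayed in unnamed clusters. A cell type is called X-like because its name rests on such markers.

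A single cluster was osteoblast-like, with 31 WT and 21 mutant cells. Of its 12 markers, none of which is among the 8 genes, 9 were raised, among them Ifitm5, Smpd3, Omd, Dlx3, Dlx5, Pth1r, Col11a2 and Bmp3. Phospho1, a phosphatase of mineral vesicles, and Sost, a defining gene of mature osteocytes, had 0 UMIs in the cluster, and Mepe had 7 UMIs in WT and 8 in the mutant.

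Upstream sequence is shown for Bglap and Ibsp because barcodes were split by their osteocalcin and Ibsp UMIs, as described further on. Each run is the 250 bases before the RefSeq transcription start, 5′ to 3′ on the gene's strand, in GRCm38.p6. Capitals mark ACCACA, the core that Runx proteins bind, which was searched on both strands (TGTGGT on the other). The Bglap run spans chr3:88384467-88384716 on the minus strand and the Ibsp run chr5:104299037-104299286 on the plus strand.
Bglap: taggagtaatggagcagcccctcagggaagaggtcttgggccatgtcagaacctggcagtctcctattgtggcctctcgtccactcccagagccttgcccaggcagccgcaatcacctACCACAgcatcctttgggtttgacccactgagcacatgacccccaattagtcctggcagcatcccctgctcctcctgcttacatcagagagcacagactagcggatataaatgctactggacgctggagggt
Ibsp: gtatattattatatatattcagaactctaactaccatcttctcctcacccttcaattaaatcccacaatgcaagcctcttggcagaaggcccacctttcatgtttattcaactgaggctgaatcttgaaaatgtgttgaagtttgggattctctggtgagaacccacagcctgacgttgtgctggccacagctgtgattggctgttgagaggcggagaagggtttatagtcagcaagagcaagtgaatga
The Bglap run holds 1 match, with its first base at position -132 from the start, and the Ibsp run holds 0. RefSeq windows of 300 bases (250 before and 50 after the start) were at hand for 6 of the 8 genes, 8 windows in all, of which 3 held the core (Bglap, Runx2 and 1 of the Dmp1 windows). Among windows of all genes, 5506 of 32851 (16.8%) held it. A match is a run of letters and does not show binding.

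Summed over all kept cells, 4 of the 8 genes were at least 2-fold lower in the mutant library than in WT, 1 was at least 2-fold higher and 3 lay between. Among all 18619 genes with at least 20 UMIs, 6.51% were at least 2-fold lower and 6.06% at least 2-fold higher. The median log2 ratio was -0.82 over the 8 genes and -0.08 over all genes. In such sums, fewer cells that carry a transcript and less of it per cell cannot be told apart.

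Runx2 (ENSMUSG00000039153, chr17:44495987-44814797, minus strand) is the transcription factor without which osteoblasts do not form. It stood at 201 CPM (197 to 205) in WT against 207 CPM (203 to 211) in the mutant, with a log2 ratio of 0.04 (0.01 to 0.08). The sign turned when all deposited barcodes entered, with -0.02, so the libraries cannot be ordered for Runx2. Sp7 (ENSMUSG00000060284, chr15:102356606-102367182, minus strand), which acts downstream of Runx2, was at 9.41 CPM (8.56 to 10.3) in WT against 6.31 CPM (5.66 to 7.02) in the mutant, with a log2 ratio of -0.58 (-0.78 to -0.37).

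The matrix genes lay further apart than these regulators. Ibsp (ENSMUSG00000029306, chr5:104299171-104311469, plus strand), an acidic protein of mineralizing matrix, had 56792 UMIs in WT and 4578 in the mutant, or 1174 CPM (1165 to 1184) and 84.3 CPM (81.8 to 86.7), with a log2 ratio of -3.80 (-3.84 to -3.76). Among the 8 genes this ratio was the farthest from 0. Bglap (ENSMUSG00000074483, chr3:88383501-88384464, minus strand) was at 329 CPM (324 to 334) in WT against 92.5 CPM (90.0 to 95.1) in the mutant, with a log2 ratio of -1.83 (-1.87 to -1.78). Its neighbour Bglap2 (ENSMUSG00000074486, chr3:88377736-88378699, minus strand), which encodes nearly the same protein, was at 163 CPM (159.8 to 167) and 50.2 CPM (48.3 to 52.1), with a log2 ratio of -1.70 (-1.77 to -1.64). In summed UMIs both copies of osteocalcin were thus lower in the mutant library. Their transcripts are nearly alike, so they do not count as separate evidence. A Bglap UMI was found in 295 WT cells (6.78%, 6.05 to 7.57) and 604 mutant cells (10.5%, 9.71 to 11.3). For Bglap too the share of cells thus went the other way. Alpl (ENSMUSG00000028766, chr4:137741733-137796384, minus strand) was at 65.7 CPM (63.5 to 68.1) in WT against 31.6 CPM (30.1 to 33.1) in the mutant, with a log2 ratio of -1.06 (-1.14 to -0.97), and of -0.98 with haemoglobin genes left out of the totals, which is short of 2-fold.

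The genes of late osteoblasts and osteocytes stood on the other side. Dmp1 (ENSMUSG00000029307, chr5:104202613-104214102, plus strand), an acidic phosphoprotein of bone matrix, had 57 UMIs in 12 WT cells and 406 in 26 mutant cells, or 1.18 CPM (0.893 to 1.53) and 7.47 CPM (6.76 to 8.24), with a log2 ratio of 2.66 (2.26 to 3.09). Phex (ENSMUSG00000057457, chrX:157162075-157415312, minus strand), a membrane peptidase whose loss causes X-linked rickets, was at 9.78 CPM (8.92 to 10.7) and 12.8 CPM (11.9 to 13.8), with a log2 ratio of 0.39 (0.22 to 0.56). A Phex UMI was found in 98 WT cells (2.25%, 1.83 to 2.74) and 90 mutant cells (1.56%, 1.26 to 1.92), so the share of cells went the other way. The richest barcode held 19.9% of its UMIs in WT and 28.7% in the mutant.

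Most of these sums rested on few barcodes. The barcode richest in Bglap held 37.5% of all Bglap UMIs in WT and 36.5% in the mutant, and the 10 richest held 93.7% and 84.0%. The richest in Dmp1 held 16 of 57 UMIs in WT and 172 of 406 in the mutant. Runx2 and Alpl were spread more evenly, with 2.76% and 3.62% of their WT UMIs and 5.90% and 5.48% of their mutant UMIs in the richest barcode. Without the richest barcode of the gene in each library the log2 ratio was -3.99 for Ibsp, -1.81 for Bglap, -1.54 for Bglap2, -1.08 for Alpl, -0.72 for Sp7, 0.22 for Phex and 2.35 for Dmp1. These 7 genes kept their direction.

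**Figure D1:**
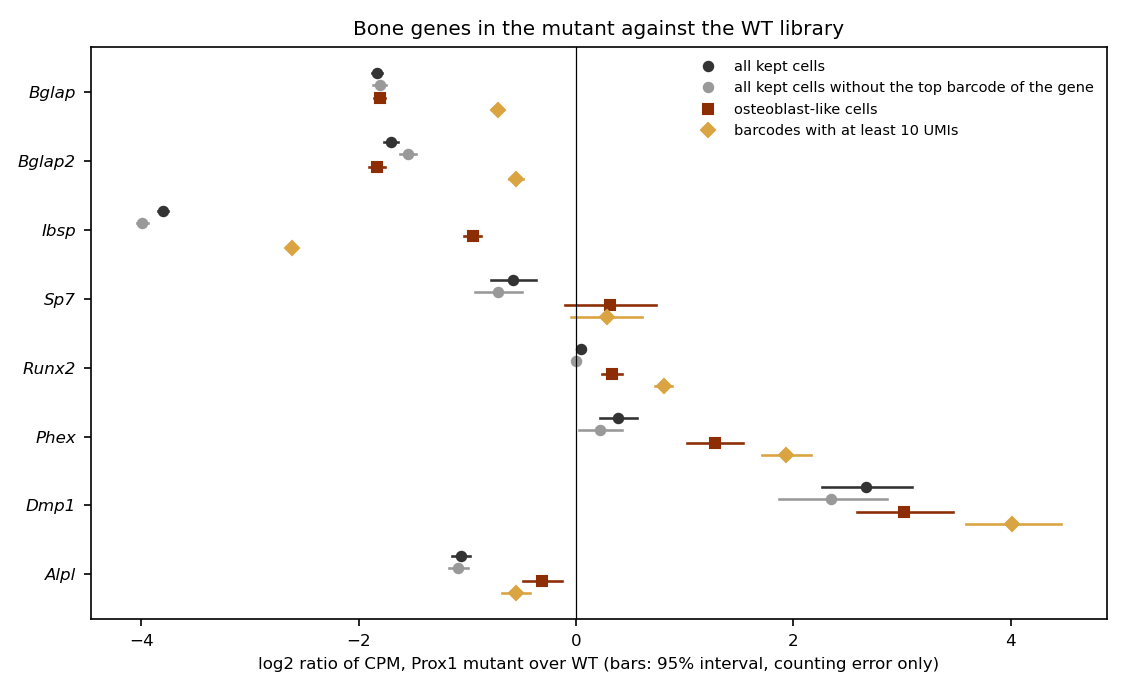
Log2 ratio of CPM, mutant over WT, of each gene (rows) over all kept cells, over all kept cells without the gene's richest barcode, in osteoblast-like cells and in barcodes with at least 10 UMIs of Bglap, Bglap2 and Ibsp, with bars for the 95% interval of counting error. Ibsp, Bglap, Bglap2 and Alpl lie below 0 in the 4 groupings drawn, and Dmp1 and Phex lie above 0. The groupings share cells and are not separate views. Bglap, Bglap2 and Ibsp chose the barcodes of the last grouping, so their values there only describe it. Sp7 lies at -0.58 over all kept cells and at 0.32 (-0.10 to 0.74) in osteoblast-like cells, an interval that includes 0. In the mutant osteoblast-like cells 42 of 104 Sp7 UMIs lie in 1 cell.

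Across cell types, Bglap, Bglap2 and Dmp1 lay mainly in the osteoblast-like cluster. It held 94.4% of the Bglap UMIs in WT and 78.4% in the mutant, and 89.5% and 93.1% of the Dmp1 UMIs. Bglap stood there at 25562 CPM (25155 to 25974) in WT against 7314 CPM (7088 to 7546) in the mutant. The next type was chondrocyte-like in WT, at 375 CPM (337 to 416), and mesenchymal-like in the mutant, at 82.7 CPM (75.0 to 91.1), whose interval overlapped that of the 20 epithelial-like cells. Bglap2 was at 12256 CPM (11974 to 12542) and 3450.2 CPM (3295 to 3611) in osteoblast-like cells. Its order was like that of Bglap, with chondrocyte-like cells second in WT and mesenchymal-like cells second in the mutant. Dmp1 was at 86.8 CPM (64.7 to 114) and 702 CPM (633 to 776). Outside the osteoblast-like cluster it was found in smooth muscle and pericyte-like cells of both libraries, with 6 UMIs in 6 WT cells and 14 in 6 mutant cells, and it had 0 UMIs in chondrocyte-like cells of both.

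Ibsp and Alpl were high in cartilage cells as well. In WT the chondrocyte-like cluster held 90.1% of the Ibsp UMIs at 52979 CPM (52521 to 53440.5), above the osteoblast-like cluster at 6588 CPM (6382 to 6799). In the mutant it held 49.8% at 3766 CPM (3613 to 3924), and the osteoblast-like cluster followed at 3406 CPM (3252 to 3565). The mutant level rested on 2 of 107 cells, with 1135 and 1120 of 2280 UMIs. Without the richest barcode of each class, left out after the values were seen, the mutant classes were at 2018 CPM (1903 to 2138) and 2967 CPM (2799 to 3142), which turns their order, while in WT they were at 47058 CPM (46614 to 47504) and 5674 CPM (5477 to 5877). Alpl was at 1293 CPM (1222 to 1366) in chondrocyte-like and 1009.7 CPM (930.04 to 1094) in osteoblast-like cells of WT, and in the opposite order in the mutant, at 297 CPM (255 to 344) and 815 CPM (740.3 to 895). The mutant chondrocyte-like level rested on 11 of 107 cells, with 88 and 57 of 180 UMIs in single cells. Without the richest barcode of each class the mutant classes were at 162 CPM (131 to 199) and 876 CPM (786 to 973), in the same order.

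Runx2, Sp7 and Phex were first in osteoblast-like cells in both libraries. Runx2 was at 3106 CPM (2965 to 3252) in WT against 3897 CPM (3733 to 4068) in the mutant, and was found in 31 of 31 and 20 of 21 cells. Sp7 was at 155 CPM (125 to 190.2) and 193 CPM (158 to 234), which overlap, and Phex at 322 CPM (278 to 371) and 779 CPM (707 to 858), which do not. A Phex UMI was found in 13 of 31 WT and 9 of 21 mutant cells, with a median of 0 in both. The richest cell held 94 of 189 Phex UMIs in WT and 200 of 420 in the mutant. Chondrocyte-like cells followed for Sp7, at 81.8 CPM (64.8 to 102) in WT against 52.9 CPM (36.2 to 74.6) in the mutant, and for Phex, at 68.4 CPM (52.9 to 87.0) and 38.0 CPM (24.1 to 57.0).

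**Figure D2:**
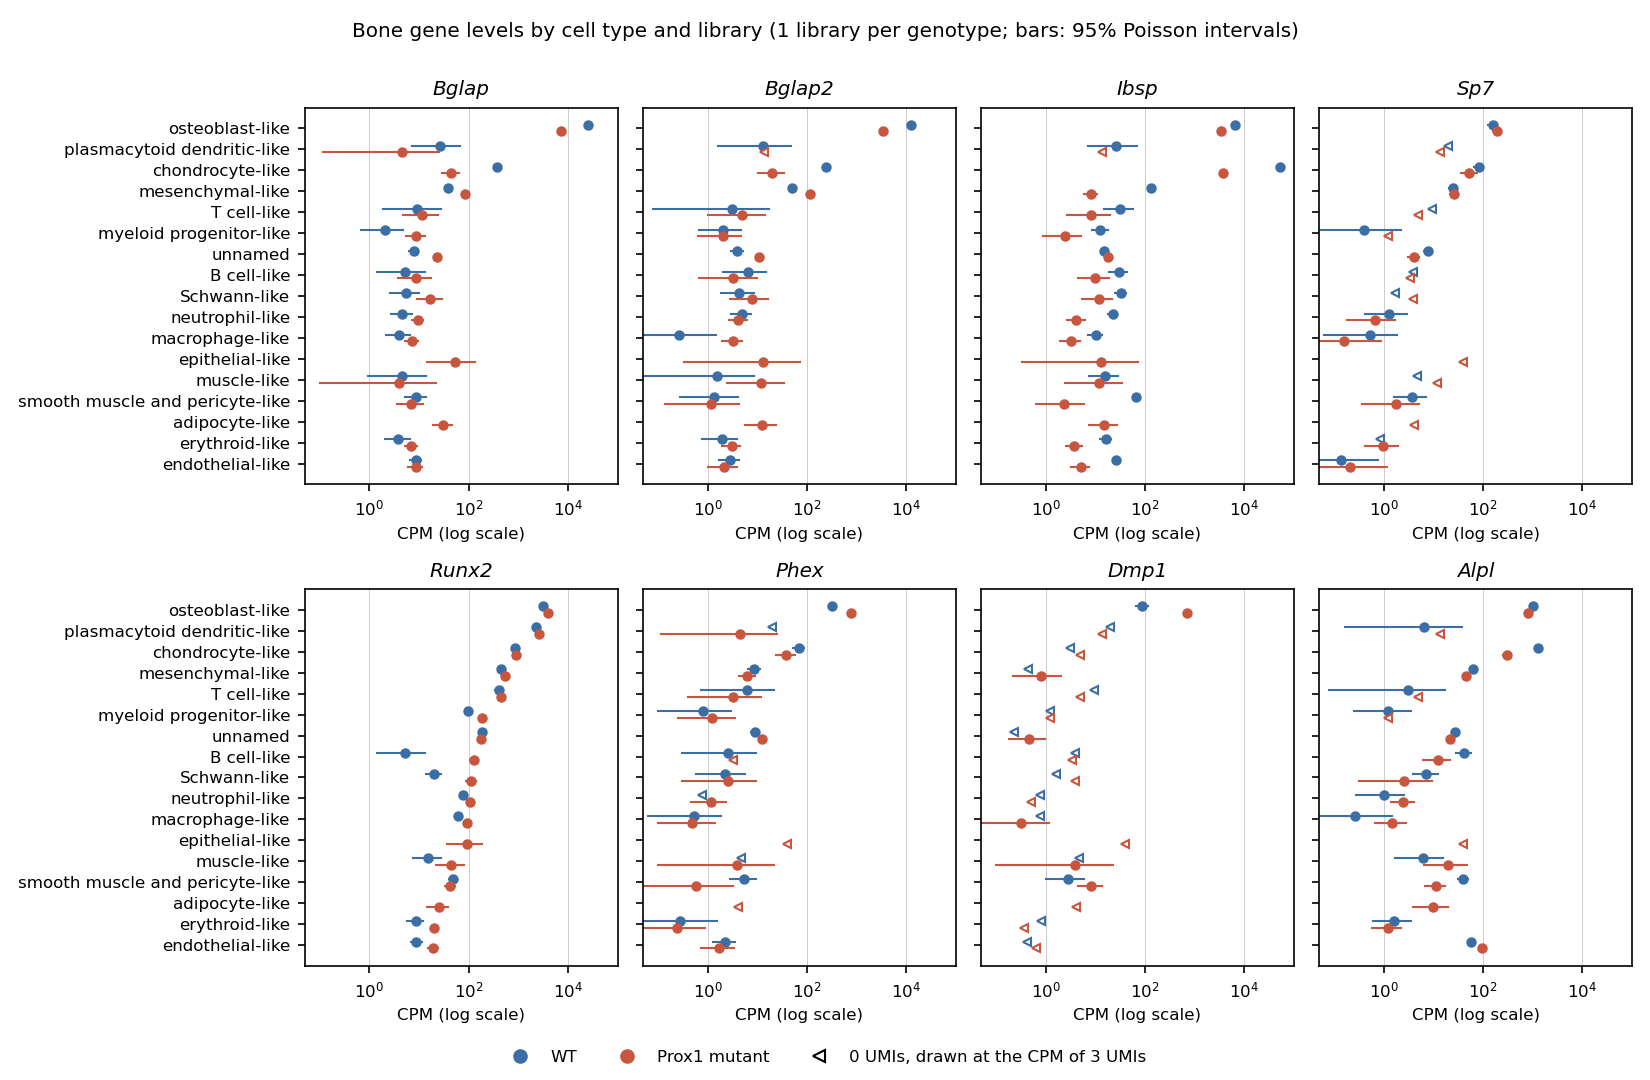
Level of each of the 8 genes (panels) in CPM on a log axis in each cell type with at least 20 cells and in the unnamed clusters together, WT in blue and mutant in red, with 95% Poisson intervals and open triangles at the CPM of 3 UMIs where a type had 0. Osteoblast-like cells are highest for 6 genes in both libraries, and chondrocyte-like cells are above them for Ibsp and Alpl in WT and for Ibsp in the mutant, where 2 cells hold nearly all of it and the order turns without the richest barcode.

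Runx2 was also present outside the skeleton. Plasmacytoid dendritic-like cells, a type of immune cell in which Runx2 is a known regulator, carried 2306 CPM (2070.01 to 2561) in WT against 2609.7 CPM (2399.6 to 2833) in the mutant, with a Runx2 UMI in 20 of 20 and 23 of 23 cells. They were the second type in both libraries, above chondrocyte-like cells at 845 CPM (788 to 905) and 890.4 CPM (817 to 969). Mesenchymal-like cells were at 453 CPM (437 to 469) and 548 CPM (528 to 569), and T cell-like cells at 407 CPM (340.4 to 482) and 443 CPM (391 to 499.5). These last types overlap in WT and not in the mutant. B cell-like cells had 4 Runx2 UMIs in 147 WT cells and 114 in 120 mutant cells, of which 26 carried at least 1. An unnamed cluster led by Mmp12 with Dcstamp and Spp1 held 9.91% of the Runx2 UMIs in WT and 8.07% in the mutant.

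Alpl was present in endothelial-like cells, at 58.5 CPM (53.0 to 64.4) in WT against 97.3 CPM (88.6 to 107) in the mutant. Most of these UMIs lay in a cluster led by Nebl, Sema3g and Gja5, the last of them a gap junction gene of arteries. Alpl was there at 204 CPM (182 to 228) in WT against 289 CPM (259 to 322) in the mutant, and was found in 128 of 224 and 97 of 131 cells. Neutrophil-like cells had 4 and 15 Alpl UMIs in 362 and 562 cells.

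**Figure D3:**
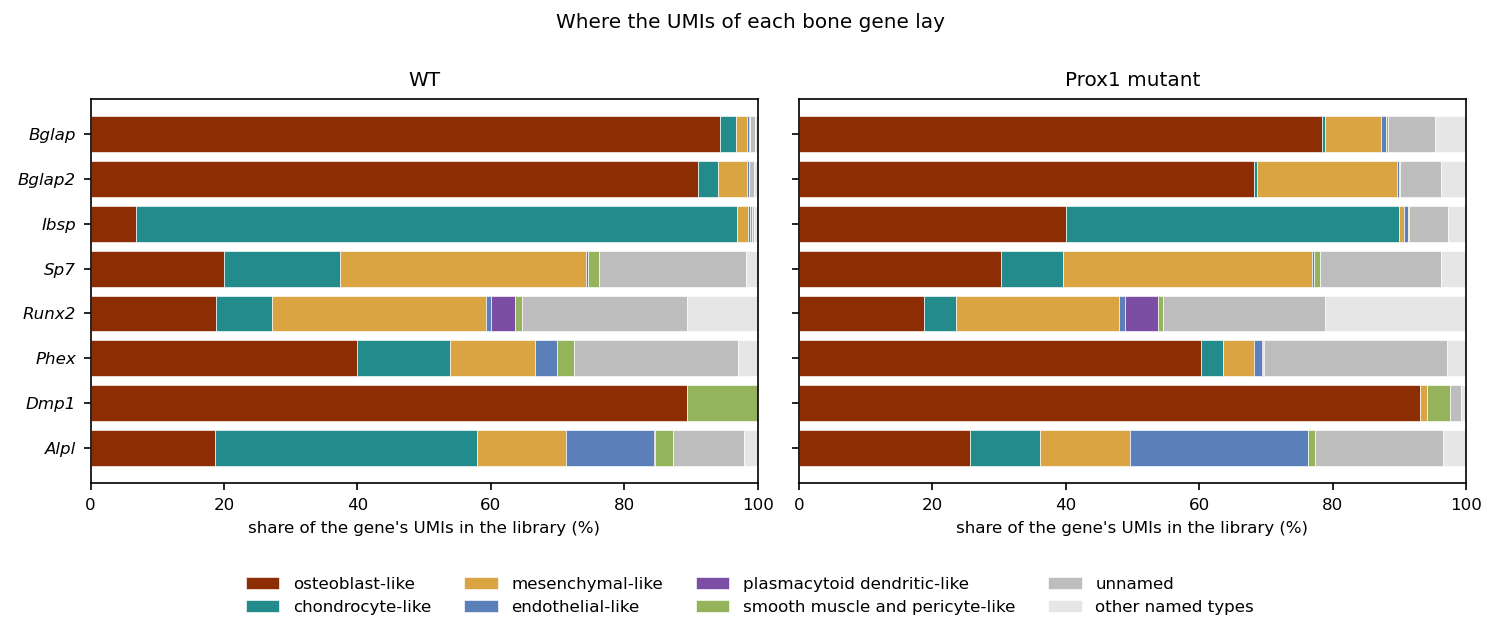
Share of each gene's UMIs (rows, in percent of the library) that lay in each cell type (colours), WT on the left and mutant on the right. Chondrocyte-like cells take 90.1% of Ibsp in WT and 49.8% in the mutant, while osteoblast-like cells take 18.8% and 18.7% of Runx2.

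Sp7 and Runx2 were also found in mesenchymal cells whose osteocalcin level was lower than that of osteoblast-like cells. A mesenchymal-like cluster led by Tnn, Pdzrn4 and Postn (166 WT and 102 mutant cells) held 36.7% of the Sp7 UMIs in WT and 35.6% in the mutant, at 71.9 CPM (61.4 to 83.7) and 83.5 CPM (69.4 to 99.7). Runx2 in it was at 1228 CPM (1184 to 1274) and 1692 CPM (1626 to 1759.7). Bglap was at 96.0 CPM (83.8 to 109) and 225 CPM (201 to 250.2) and Bglap2 at 120.1 CPM (106 to 135) and 326 CPM (297 to 357), the last being 17.5% of all mutant Bglap2 UMIs, with 253 of 476 in 1 cell. An unnamed cluster led by Dok6, Plppr1 and Gpc5 carried an Sp7 UMI in 45 of 85 WT and 19 of 29 mutant cells, at 78.5 CPM (63.3 to 96.3) and 79.1 CPM (54.8 to 111). Phex was also found in an unnamed cluster led by Calca, Asic2 and Cntnap2, genes known from neurons. In this cluster 7 of 8 mesenchymal markers were raised as well, and it stayed unnamed because the neuronal genes led. Phex was there at 93.1 CPM (76.1 to 113) in WT against 149 CPM (126 to 175) in the mutant, in 17 of 128 and 16 of 116 cells. These clusters were picked out after their values were seen.

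The abundant matrix transcripts were also found in cells that should lack them. An Ibsp UMI was present in 18.0% of neutrophil-like cells in WT and 4.09% in the mutant, at median depths of 6004 and 5425 UMIs, and in 9.18% and 2.02% after each cell was thinned to 2000 UMIs. Over all kept cells the share was 15.2% and 5.12%, and 6.43% and 2.54% after thinning. For Bglap the thinned shares were 1.27% and 4.84% in neutrophil-like cells (3.87% and 9.25% unthinned) and 2.47% and 4.66% in all kept cells (6.78% and 10.5%). A cell with 1 UMI of these genes is therefore not counted here as a cell that expresses them. Thinning left out 509 WT and 1269 mutant cells of lower depth.

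Within the osteoblast-like cluster the cells were far from alike. Osteocalcin (Bglap and Bglap2 summed) reached 100 UMIs in 10 of 31 WT and 7 of 21 mutant cells, and was at 0 in 8 and 8. Bglap ran from 0 through a median of 14 to 5969 UMIs in the WT cells and from 0 through 3 to 1835 in the mutant cells. Runx2 ran from 13 through 42 to 268 and from 0 through 39 to 663. The ranges of both genes overlapped between the libraries. A count of 0 in a cell does not show that the gene was not expressed there.

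The osteoblast-like cells made up 0.712% (0.484 to 1.01, exact binomial) of kept WT cells and 0.365% (0.226 to 0.557) of kept mutant cells, a difference of -0.35 (-0.67 to -0.06) percentage points. With the 8 genes kept in the clustering it was -0.26 (-0.56 to 0.02), an interval that includes 0. The totals of these shares include unnamed cells, 19.7% of kept cells in WT and 40.8% in the mutant. Summed over the cluster, the log2 ratio of mutant over WT was -1.81 (-1.86 to -1.75) for Bglap, -0.95 (-1.03 to -0.87) for Ibsp, -0.31 (-0.49 to -0.13) for Alpl, 0.32 (-0.10 to 0.74) for Sp7, 0.33 (0.24 to 0.42) for Runx2, 1.28 (1.03 to 1.53) for Phex and 3.01 (2.59 to 3.47) for Dmp1. In these sums Bglap and Ibsp stood on the opposite side from Phex and Dmp1. The cluster held most Bglap and Dmp1 UMIs of both libraries, so for them this is no separate view. Much of the mutant sum lay in 2 barcodes of 144816 and 97884 UMIs. They held 47 and 200 of 420 Phex and 20 and 172 of 378 Dmp1 UMIs. They also held 663 and 360 of 2100 Runx2 and 42 and 18 of 104 Sp7 UMIs. Their part in the ratios of single genes was not tested. Col1a1, which encodes the main collagen of bone, was at 54696 CPM in WT against 33154 CPM in the mutant cluster. Its median was 46 UMIs per cell in WT and 8 in the mutant, and 25 of 31 and 9 of 21 cells held at least 10. In the mutant, single cells held 4708, 4392, 4320 and 3509 of its 17864 UMIs. Spp1, which encodes the matrix protein osteopontin, went the other way, at 4543 CPM in WT against 8578 CPM in the mutant cluster.

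The chondrocyte-like cluster differed between the libraries in more than Ibsp. Its 31 WT cells had a median of 32169 UMIs and its 107 mutant cells a median of 3359. A UMI of Col2a1, the collagen that defines cartilage, was found in 30 of the WT and in 12 of the mutant cells, so most mutant cells of the cluster lacked the marker. Among cells with at least 10000 UMIs, 28 in WT against 14 in the mutant, Ibsp ran from 0 through a median of 776 to 8071 UMIs and from 0 through 0 to 1135. The ranges overlapped, with 13 WT and 2 mutant cells of the whole cluster at 1000 Ibsp UMIs or more. The part of depth and of the make-up of the cluster in the Ibsp difference was not tested. Without chondrocyte-like cells, left out after the values were seen, the log2 ratio of the 8 genes together over all other kept cells was -0.96, against -1.99 with them. How many cells were named chondrocyte-like depended on the clustering, with 33 WT and 4 mutant cells where the libraries were merged without integration.

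The barcodes with at least 10 UMIs of Bglap, Bglap2 and Ibsp describe where these 3 genes lay, since their UMIs chose the barcodes. They were 1.79% (1.42 to 2.23, exact binomial) of kept WT cells and 0.591% (0.409 to 0.824) of kept mutant cells, a difference of -1.20 (-1.67 to -0.78) percentage points. With each cell thinned to 2000 UMIs, 43 WT and 15 mutant barcodes reached the threshold, a difference of -0.78 (-1.19 to -0.43) points. The totals of kept cells include unnamed cells, 19.7% in WT and 40.8% in the mutant. In the barcodes the sum of the 3 genes had a median of 108 UMIs in WT and 27 in the mutant and reached 9063 and 2580. Just inside the threshold, at 10 to 12 UMIs, lay 7 WT and 5 mutant barcodes, and just outside it, at 7 to 9, lay 10 and 11. At a threshold of 100 UMIs there were 40 and 11 barcodes, and at 1000 UMIs 19 and 5. The barcodes held 98.4% and 88.8% of the UMIs of the 3 genes.

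The barcodes were split by which of osteocalcin and Ibsp had more UMIs, a split made after the values were seen. By it 32 WT and 19 mutant barcodes had more osteocalcin than Ibsp UMIs (osteocalcin-led), and 46 and 15 had not (Ibsp-led). That the genes lead different barcodes follows from the split. Ibsp was at 0 in 14 WT and 9 mutant osteocalcin-led barcodes, and osteocalcin was at 0 in 11 and 4 Ibsp-led ones. Of the WT osteocalcin-led barcodes 13 were osteoblast-like, 12 mesenchymal-like and 2 chondrocyte-like, and of the Ibsp-led barcodes 11, 6 and 27. In the mutant the osteocalcin-led barcodes were 8 osteoblast-like, 10 mesenchymal-like and 0 chondrocyte-like, and the Ibsp-led ones 5, 1 and 3, with 6 more in unnamed clusters. Ibsp-led barcodes, which the split makes rich in Ibsp, held 94.7% of all Ibsp UMIs in WT and 55.1% in the mutant. The Ibsp of the mutant thus lay to a larger share, 36.6% against 3.95% in WT, beside osteocalcin. Its level in osteocalcin-led barcodes was not higher, at 2791 CPM (2677 to 2909) in WT against 2410 CPM (2296 to 2528) in the mutant. Of the 1674 Ibsp UMIs in these mutant barcodes, 666 and 582 lay in single barcodes.

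Cartilage genes lay with Ibsp, and Dmp1 lay with osteocalcin. Col2a1 reached 10 UMIs in 28 of 46 Ibsp-led and 4 of 32 osteocalcin-led WT barcodes, and in 3 of 15 and 1 of 19 mutant barcodes. Col10a1, the collagen of hypertrophic cartilage, was found in 18 WT and 2 mutant Ibsp-led barcodes and in 0 and 0 osteocalcin-led ones. A Dmp1 UMI was found in 5 WT and 6 mutant osteocalcin-led barcodes and in 1 and 0 Ibsp-led ones. Phex was found in both kinds, in 7 and 6 osteocalcin-led and 16 and 4 Ibsp-led barcodes.

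**Figure D4:**
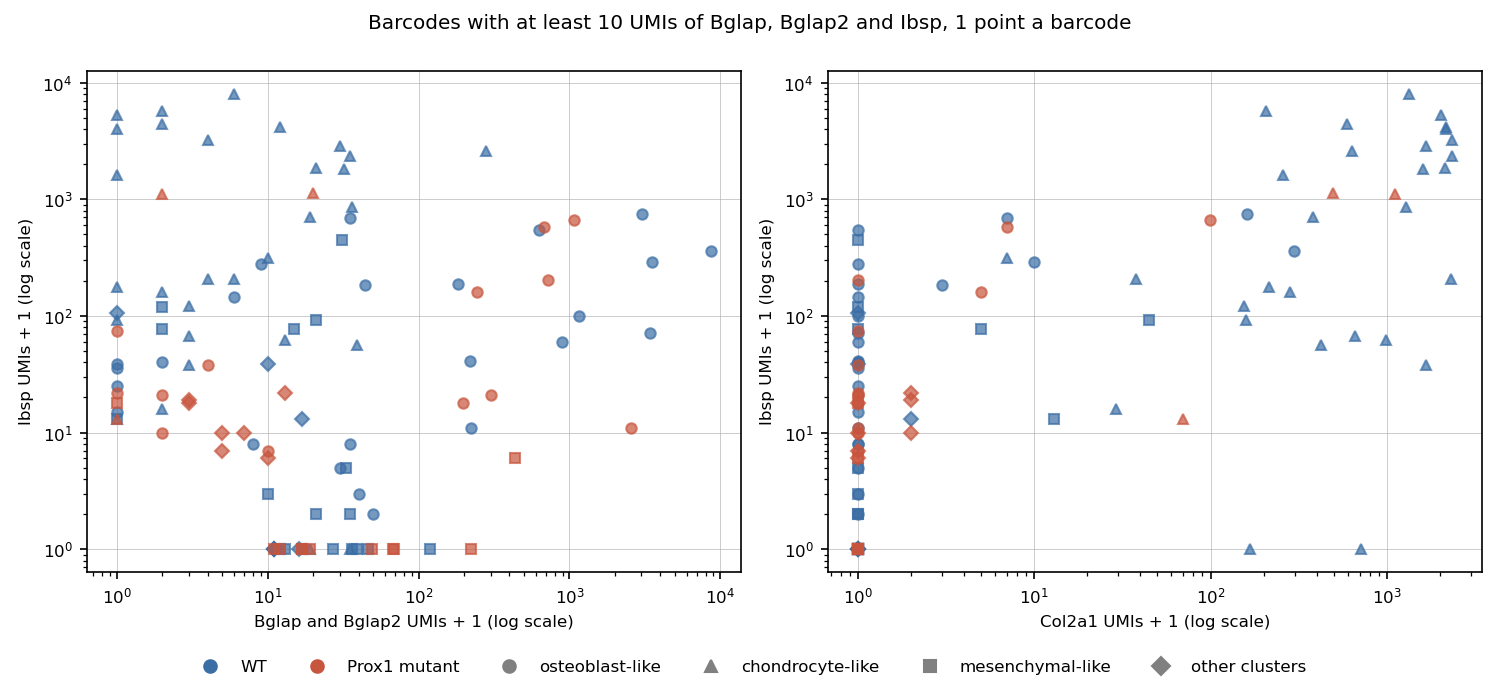
Each point is 1 barcode with at least 10 UMIs of Bglap, Bglap2 and Ibsp, coloured by library and shaped by cell type, with its Ibsp UMIs plus 1 against its osteocalcin UMIs plus 1 (left) and its Col2a1 UMIs plus 1 (right), on log axes. Chondrocyte-like WT barcodes reach 8071 Ibsp UMIs beside few of osteocalcin, and the highest osteocalcin counts are in osteoblast-like barcodes, with 5969 Bglap UMIs in WT and 1835 in the mutant.

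The richest barcodes show these kinds gene by gene. The WT barcode with the most UMIs of the 3 genes was osteoblast-like and carried 5969 Bglap, 2735 Bglap2, 359 Ibsp, 23 Runx2, 43 Phex and 9 Dmp1 UMIs. The second was chondrocyte-like and carried 8071 Ibsp, 3 Bglap, 69 Alpl, 1341 Col2a1 and 544 Col10a1 UMIs. It was followed by 5 more chondrocyte-like barcodes, with 4047 to 5753 Ibsp UMIs each. In the mutant the first was osteoblast-like, with 1835 Bglap, 735 Bglap2, 10 Ibsp and 0 Dmp1 UMIs. The next 2 were osteoblast-like barcodes of 144816 and 97884 UMIs in all, with 666 and 582 Ibsp, 663 and 360 Runx2, and 20 and 172 Dmp1 UMIs. The mutant barcodes held 376 Dmp1 UMIs, of which 96.5% lay in 4 barcodes, so the Dmp1 difference between the libraries is that of a few droplets. For Phex the 4 richest held 76.2% of the UMIs in the WT barcodes and 92.7% in the mutant barcodes.

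Most of the barcodes carried the regulators as well. Runx2 was found in 75 of 78 WT and 33 of 34 mutant barcodes, Alpl in 70 and 24, and Sp7 in 61 and 18. The barcodes were deep, with medians of 23964 and 22613.5 UMIs against 6862 and 4810 in other kept cells. Of those other cells 24.0% in WT and 28.5% in the mutant had a Runx2 UMI, and the part of depth was not tested. Against the other kept cells of the same library, Sp7 was 22.6 (18.7 to 27.3) times higher in WT and 33.4 (26.6 to 41.8) times in the mutant, and Runx2 was 11.3 (10.8 to 11.8) and 17.0 (16.3 to 17.8) times higher. Alpl was 41.6 (38.7 to 44.8) and 34.4 (31.1 to 37.9) times higher and Phex 26.1 (21.7 to 31.4) and 99.6 (85.2 to 117) times. Sp7, Runx2, Phex, Dmp1 and Alpl were each at least 4 times higher in both libraries, beside 1.72% of the 10062 genes with at least 20 UMIs in these barcodes. Bglap, Bglap2 and Ibsp chose the barcodes, so their higher level there was fixed by the choice and is not counted.

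Between the libraries, the barcodes of the mutant had more Phex, Dmp1 and Runx2 in CPM. The sets differed in make-up, with 29 of 78 WT and 3 of 34 mutant barcodes chondrocyte-like. Ibsp, whose UMIs helped to choose the barcodes and whose values there only describe them, was at 27667 CPM (27438 to 27897) in WT against 4527 CPM (4391 to 4666) in the mutant, with a log2 ratio of -2.61 (-2.66 to -2.57). Phex was at 124 CPM (109.6 to 141) and 476 CPM (432 to 522), Dmp1 at 25.2 CPM (18.8 to 33.1) and 405 CPM (366 to 449), and Runx2 at 1581 CPM (1527 to 1637) and 2766 CPM (2660 to 2875). Of the 8 genes 2 were at least 2-fold higher and 1, the choosing gene Ibsp, at least 2-fold lower in the mutant barcodes, beside 11.3% and 7.49% of all 10062 genes. Without the 2 deep mutant barcodes, left out after the values were seen, the log2 ratio of Phex was 1.19 instead of 1.93, that of Runx2 0.51 instead of 0.81 and that of Dmp1 3.42 instead of 4.01, while that of Sp7 turned from 0.28 to -0.21. At a threshold of 20 UMIs these ratios moved the other way, to 2.28 for Phex, 1.23 for Runx2, 4.35 for Dmp1 and 0.72 (0.38 to 1.06) for Sp7. In osteocalcin-led and Ibsp-led barcodes the log2 ratio was 1.42 and 1.12 for Phex, 0.91 and 0.57 for Runx2 and 0.57 and -0.59 for Sp7. For Ibsp, which helped to make that split, it was -0.21 and -2.02, and for Dmp1 it was 3.15 in osteocalcin-led barcodes. The part of make-up in these ratios was not tested.

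RNA of other cell types was present in some of the barcodes. Haemoglobin reached 100 UMIs in 6 of 15 Ibsp-led and 1 of 19 osteocalcin-led mutant barcodes, and in 0 of 46 and 1 of 32 WT barcodes. The summed level of the 7 erythroid markers, none of them at 0, ran from 0 through a median of 44.5 to 25120.2 CPM per barcode in WT and from 0 through 158 to 138577 in the mutant. The 8 B cell markers, 1 at 0 in WT and 3 in the mutant, ran from 0 through 9.0 to 6442 and from 0 through 1104 to 7053 CPM. Their part in the values above was not tested. Without the barcodes of 100 or more haemoglobin UMIs, a choice made after the values were seen, the difference in share was -1.11 (-1.64 to -0.58) points. The highest doublet scores marked 14 of 78 WT and 1 of 34 mutant barcodes, beside 152 of 4352 and 265 of 5757 kept cells. Without the marked cells the difference in share was -0.92 (-1.37 to -0.51) points.

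The osteocalcin pair could be set side by side because both copies are counted in the same cells. Bglap2 made up 33.1% (32.5 to 33.7) of the pair in the WT barcodes and 35.7% (34.6 to 36.9) in the mutant barcodes, summed over barcodes. Among barcodes with at least 20 UMIs of the pair, 34 in WT and 12 in the mutant, the median share was 41.4% in both. It ran from 23.5% to 90% in WT and from 25.5% to 79.2% in the mutant. By cell type, a view chosen after the values were seen, Bglap2 made up 32.4% (31.8 to 33.0) and 32.1% (30.9 to 33.3) in osteoblast-like cells. In mesenchymal-like cells it made up 56.4% (52.4 to 60.4) and 57.9% (54.8 to 61.0), higher than in osteoblast-like cells in both libraries. A single mutant mesenchymal-like cell held 184 of 416 Bglap and 253 of 573 Bglap2 UMIs. The transcripts Bglap-201 and Bglap2-201 are identical at 434 of 440 aligned bases, so reads may have been divided between the copies or lost, and the split is uncertain. A related gene, Bglap3, had 20 UMIs in the WT and 50 in the mutant barcodes.

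The wider programme of bone was read from gene lists that hold none of the 8 genes. Of 20 genes of osteoblast matrix and mineral, 19 had at least 20 UMIs in the barcodes, and 11 of these were at least 4 times higher there than in other cells in both libraries, beside 1.72% of all genes with as many UMIs. The median ratio of the 19, with 5 CPM added to each level, was 5.24 in WT against 9.43 in the mutant, against 0.912 and 1.08 over all genes. Of the 19, 2 were at least 2-fold higher and 4 at least 2-fold lower in the mutant barcodes than in those of WT, beside 11.3% and 7.49% of all genes. Col1a1 was at 33178 CPM (32927 to 33429) in the WT and 25025 CPM (24704 to 25349) in the mutant barcodes, and Col1a2, the other chain of collagen I, at 24818 CPM (24602 to 25036) and 20190.3 CPM (19902 to 20482). Sparc (osteonectin), a collagen-binding protein, was at 32810 CPM (32561 to 33060.5) and 13779 CPM (13542 to 14020.4). Spp1 (osteopontin), which macrophages carry too, was at 2867 CPM (2794 to 2942) and 5148 CPM (5003 to 5296) and was 2.52 (2.45 to 2.59) times higher than in other cells in WT and 9.50 (9.22 to 9.80) times in the mutant. Phospho1 had 0 UMIs in the barcodes of both libraries.

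Of 10 osteocyte genes other than Dmp1 and Phex, 6 had at least 20 UMIs and 3 (Irx5, Ptprz1 and Dkk1) were at least 4 times higher in both libraries, beside the same 1.72%. The median ratio was 4.32 in WT and 8.72 in the mutant. In the mutant barcodes 3 of them were at least 2-fold higher than in those of WT and 1 at least 2-fold lower, beside 11.3% and 7.49% of all 10062 genes. Ptprz1, a receptor phosphatase, was at 160.1 CPM (143 to 178) in WT against 608 CPM (559 to 661) in the mutant. Irx5, a homeobox factor, was at 159 CPM (142 to 177) and 69.0 CPM (53.2 to 88.1). Ibsp-led barcodes held 278 of its 322 WT UMIs and 14 of its 64 mutant UMIs. Restricted to osteocalcin-led barcodes, Irx5 was not lower in the mutant. There 44 WT UMIs made 54.7 CPM and 50 mutant UMIs made 72.0 CPM. Dkk1, a secreted Wnt inhibitor, was at 45.5 CPM (36.6 to 55.7) and 77.6 CPM (60.8 to 97.8). Cd44, which many leukocytes carry, was at 311 CPM (287 to 337) and 495 CPM (451 to 542) and thus below its level in other cells, 641 and 922 CPM. Sost, Fgf23 and Wnt1 had 0 UMIs in the barcodes of both libraries, where 3 UMIs, about the upper limit of a single-sided 95% interval for a count of 0, would be 1.48 CPM in WT or 3.24 CPM in the mutant.

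Of 18 regulators of the osteoblast, 16 had at least 20 UMIs and 4 were at least 4 times higher in both libraries, among them Pth1r, Vdr and Dlx5, beside 1.72% of all genes. The median ratio was 1.80 in WT and 3.51 in the mutant. In the mutant barcodes 5 of them were at least 2-fold higher than in those of WT and 2 at least 2-fold lower, beside 11.3% and 7.49% of all 10062 genes. The parathyroid hormone receptor Pth1r was at 1202 CPM (1155 to 1251) in WT against 408 CPM (368 to 451) in the mutant, and in WT 2186 of its 2433 UMIs lay in Ibsp-led barcodes. The vitamin D receptor Vdr was at 97.3 CPM (84.2 to 112) and 248 CPM (217 to 282), and the zinc finger gene Zfp521 at 216 CPM (196 to 237) and 281 CPM (248 to 318). Over all these barcodes Vdr thus stood on the side of Phex and Dmp1, and Pth1r on the side of Ibsp. In osteocalcin-led barcodes Pth1r was at 307 CPM in WT against 274 CPM in the mutant, and Vdr at 118 and 295 CPM. In Ibsp-led barcodes Pth1r was at 1792 and 808 CPM, and Vdr at 83.6 and 107 CPM. The part of make-up was not tested.

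Of 11 remodelling signals, 11 had at least 20 UMIs and 3 (Mmp13, Bmp3 and Tnfrsf11b) were at least 4 times higher in both libraries, beside 1.72% of all genes. The median ratio was 2.38 in WT and 4.59 in the mutant. In the mutant barcodes 5 of them were at least 2-fold higher than in those of WT and 1 at least 2-fold lower, beside 11.3% and 7.49% of all 10062 genes. Mmp13, a collagenase of bone and hypertrophic cartilage, was at 615 CPM (581 to 650.2) in WT against 671 CPM (619 to 726) in the mutant, and Mmp14, a membrane-bound protease, at 276 CPM (254 to 300.03) and 361 CPM (324 to 402). Csf1, a growth factor for osteoclast precursors, was at 45.5 CPM (36.6 to 55.7) and 212 CPM (184 to 244). The chemokine Cxcl12 was at 157 CPM (140.3 to 175) and 1267 CPM (1196 to 1342), and 812 of its 1175 mutant UMIs lay in Ibsp-led barcodes.

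The 5 genes of hypertrophic cartilage were each at least 4 times higher in the barcodes of both libraries than in other cells, beside 1.72% of all genes, with a median ratio of 34.7 in WT and 12.7 in the mutant. In the mutant barcodes 3 of them (Col10a1, Ihh and Panx3) were at least 2-fold lower and 0 at least 2-fold higher, beside 7.49% and 11.3% of all genes. Col10a1 stood at 1102 CPM (1056 to 1148) in WT against 93.8 CPM (75.1 to 116) in the mutant, and Panx3, a channel protein, at 337 CPM (312 to 363) and 66.9 CPM (51.3 to 85.7). The mutant values rested on few of the 34 barcodes, with Col10a1 in 2, Ihh in 2 and Panx3 in 5. Single barcodes held 58 of 87 Col10a1, 19 of 20 Ihh and 44 of 62 Panx3 UMIs. Mef2c, a factor that drives hypertrophy, was at 919.9 CPM (879 to 963) and 1099 CPM (1032 to 1168). Of 6 tooth matrix genes, looked at because teeth lie near the joint, Ambn had 11 UMIs in 3 WT barcodes and 0 in the mutant, and Dspp, Amelx, Enam, Amtn and Odam had 0 in both.

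The 15 genes with the highest ratio of these barcodes to other cells, by the lower of the libraries, were Ibsp, Bglap, Bglap2, Col2a1, Col11a1, Col11a2, Smpd3, Col9a1, Alpl, Ifitm5, Col1a1, Fat3, Pth1r, Slc8a3 and Col13a1. Of these, 3 chose the barcodes, Alpl is the other of the 8 genes among them, and Col2a1, Col11a1, Col11a2 and Col9a1 are collagens of cartilage. Col11a2 is also among the osteoblast markers and the osteoblast matrix genes used here, and 1026 of its 1406 UMIs in the WT barcodes lay in Ibsp-led ones. Smpd3, a sphingomyelinase needed for mineral, was at 802 CPM (764 to 842) in WT against 572 CPM (524 to 622) in the mutant, and Ifitm5, a membrane protein of osteoblasts, at 153 CPM (136 to 171) and 212 CPM (184 to 244). Phex ranked at 25, Sp7 at 31, Runx2 at 34 and Dmp1 at 103 of the 10062 genes.

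Across the named cell types with at least 20 cells, 14 in WT against 16 in the mutant, the genes whose level ran most like that of Runx2 were Dap, Runx3, Slc41a2, Vdr and Runx2os1, with a mean Pearson r of log2 levels over the libraries from 0.79 to 0.85. Runx2os1 lies antisense to Runx2, and where use of strand in the counting is not stated the reads of the pair cannot be told apart. Most like Alpl were Fgfr3, Col13a1, Tmie, Smpd3 and Rhbdl2, with r from 0.92 to 0.93. Most like the sum of Bglap, Bglap2 and Ibsp were Pla2g5, Cgref1, Mdfi, Col11a2 and Slc13a5, with r from 0.95 to 0.97. These are descriptions over few types that share a library.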

How the data were processed

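Single cells of the TMJ of 1 WT and 1 Prox1+/− sample, both given CFA, were profiled by droplet 3′ RNA-seq (the labels name a v2 kit and the study's methods v3.1). The authors deposited raw UMI counts per gene and barcode, made with Cell Ranger 7.0.1 on mm10 per the submitters' processing notes. Whether introns or strand entered the counting is not given in the sources used here. The kept totals, 48366846 and 54330221 UMIs, set the counting precision.

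Barcodes were kept at 500 or more genes and less than 10% mitochondrial UMIs, 4352 of 5709 in WT and 5757 of 7846 in the mutant. Counts were normalized with sctransform 0.4.2 and integrated by anchors in Seurat 5.3.0 (R 4.3.3) on 3000 features without the 8 genes and Bglap3, then clustered on 200 principal components at resolution 1.5. A cluster was named where at least 3 markers and at least 50% of a type's list were at least 2 times higher than in other cells and present in at least 10% of cells. The share of 50% and the exclusion of clusters with immunoglobulin or neuronal leading genes were chosen after seeing the data. Levels are summed UMIs per 1000000 (CPM) with exact Poisson intervals, shares have exact (Clopper-Pearson) intervals and differences of shares Newcombe intervals, all 95% and for counting error only (Python 3.11.15, numpy 2.4.6, scipy 1.17.1). Ratios to other cells used to rank genes had 5 CPM added. With 1 library per genotype there is no test and no p-value. The intervals were tested on simulated data. Scrublet (scanpy 1.11.5) called 3 and 1 doublets by its automatic threshold and so did not work, and doublets were kept. As an alternative the 152 and 265 highest scores were removed, at a rate of 0.008 per 1000 cells.

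Gene positions are from GENCODE M21 (GRCm38) and upstream sequences from RefSeq (GRCm38.p6), which had no window for Bglap2 and Sp7. The 8 genes and the lists were chosen with earlier results of these data known. Beside the 8 genes, the text names from each list the 4 genes with the most UMIs in the barcodes described and those at 0 (1 result is not reported here), the 15 genes of highest ratio and the 5 most alike to each pattern. Genes named beside a count of 5 or fewer, and the clusters picked out, were chosen after their values were seen. Alternatives were other filters, thresholds, clusterings and totals.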

Additional observations from a re-analysis of the deposited data

Results flagged for a closer look

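Among barcodes that failed the filter and so entered no comparison, 7 of 1357 in WT and 5 of 2089 in the mutant carried at least 10 UMIs of Bglap, Bglap2 and Ibsp. In WT their sum over the 3 genes was 557 UMIs, with 197 in the richest barcode, and in the mutant 204 and 121. Fewer than 500 genes were detected in 4 of these WT and 2 of these mutant barcodes, and mitochondrial UMIs made up 10% or more of 4 and 4. The richest WT barcode carried 195 Ibsp UMIs and the richest mutant barcode 90 Bglap UMIs, and 3 WT barcodes and 1 mutant barcode carried Dmp1.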

How the results depend on the processing

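Each genotype has 1 library, so differences between genotypes cannot be told apart from differences between libraries, and sums resting on few barcodes vary more than their intervals show. No paired analysis was possible because each genotype has a single library. The difference in share of barcodes with at least 10 UMIs moved from -1.20 to -0.728 points at a threshold of 100 UMIs. That of osteoblast-like cells moved from -0.35 to -2.26 points with 30 principal components and to -2.29 without integration, where the named clusters held 199 and 191 WT and 133 and 121 mutant cells, and at resolution 0.5 no cluster was osteoblast-like, so no value was given. Chondrocyte-like cells, 31 in WT and 107 in the mutant, became 30 and 226 with 30 principal components and 33 and 4 without integration. They were 227 and 228 at resolution 0.5 and 29 and 106 with the 8 genes kept in the clustering. Under a filter of 200 genes and 20% mitochondrial UMIs they were 204 and 122. The log2 ratio of the 8 genes together over all kept cells moved from -1.99 to -2.03 under a wider filter (200 genes, 20% mitochondrial UMIs), -1.91 without haemoglobin in the totals, -1.17 as a mean of each cell's CPM, -0.96 without chondrocyte-like cells and -0.93 without Ibsp. In osteoblast-like cells it moved from -1.26 to -1.36 with the 8 genes kept in the clustering, -1.14 without the richest barcodes and -1.19 without the 2 deep mutant barcodes. The cause was not tested. The other 14 values of these results moved by less than the interval of the value reported. Of the single genes, Runx2 over all kept cells turned from 0.0445 to -0.0182 under the wider filter and to -0.0229 with all deposited barcodes, 32 other values moved past their interval and 30 did not.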
